A study of Caenorhabditis elegans with 9 samples.

Results

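The genes described here are 9 genes of *Caenorhabditis elegans* that encode core proteins of DNA replication. They are the 6 genes of the MCM helicase, *mcm-2* to *mcm-7*, the sliding clamp gene *pcn-1*, and the genes of both ribonucleotide reductase subunits, *rnr-1* and *rnr-2*. They were chosen by what they encode and not by a measured value, but with earlier results of these data known. They are 9 of the 20541 genes with a value in the files. RNA-Seq of whole worms gave 9 libraries in 3 groups of 3. The first group was WT worms (strain N2) fed *E. coli* OP50, the standard laboratory food. The second was WT worms exposed to *P. aeruginosa* PA14, a bacterium that infects the worm intestine, and the third was mutant worms, *egl-44(mt2247)*, kept on *E. coli* OP50. *egl-44* encodes the worm TEAD transcription factor. The worms of each group were grown at 20°C on *E. coli* OP50, were described by the submitters as young adults or adults, and were collected after 24 h at 25°C. No other allele or agent is given for any group. Each group is 1 strain, the mutants had been crossed back to N2, the sources used here do not give the number of worms in a library, and no label ties the 3 libraries of a group to separate cultures, although the study says in general that its experiments were repeated. The p-values below therefore measure the spread between libraries, which may be technical.

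As background, the MCM proteins form a ring of 6 different subunits that is loaded on DNA before S phase and unwinds it at the replication fork. PCN-1, the worm PCNA, is a ring that holds the DNA polymerases on DNA. Ribonucleotide reductase, with RNR-1 as the large and RNR-2 as the small subunit, makes the deoxyribonucleotides that the polymerases use. In an adult worm the somatic cells no longer divide. Cells divide in the distal germline, and oocytes are loaded with mRNAs that serve the fast divisions of the embryo. In RNA of whole worms, fewer cells of a type and less RNA per cell cannot be told apart.

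Values are FPKM, the fragments of a gene per kilobase of its length, scaled to the library total. The library totals were 13638251 to 17831389 reads, with a median of 15985954. The 9 genes had 453 to 6535 reads per library, for which the counting error alone (1 SD) is 4.70% to 1.24%. The spread between libraries of a group was larger than this. The labels were checked first. *egl-44* itself had 16.1, 21.5 and 16 FPKM in WT worms on OP50, 30.4, 37.5 and 32.9 on PA14, and 32.5, 37.8 and 28.2 in the libraries labelled *egl-44*, so its RNA was not lower in those libraries. The sources used here do not say what the allele does to the RNA. Genes that mark adult worms went against the stage label of the *egl-44* libraries. The adult collagen gene *col-19* was at 1475 to 2221 FPKM on OP50 and at 3.64, 4.47 and 5.54 FPKM in the *egl-44* libraries, and the yolk protein gene *vit-2* was at 509 to 1448 and at 2.4 to 3.88 FPKM. The *egl-44* libraries also carry later sample numbers than the WT libraries, so a difference in genotype, in stage and in time of deposit cannot be told apart. Of the WT libraries, PA14 replicate 2 stood apart. The intestinal actin gene *act-5* was at 123 FPKM there and at 624 to 925 FPKM in the other 5 WT libraries, and 9 early embryo genes summed to 17.3 FPKM compared with 0.605 to 3.62 FPKM. The sum of the 7 intestine genes, to which *act-5* belongs, did not set it apart, with 7909 FPKM against 5273 to 9518 FPKM. Medians and calls on PA14 of the 9 genes and the other replication genes, and calls of the cell cycle genes, are given with and without this library. Counts of overlap and of library order are given with it only.

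The 9 genes were expressed in every library. On OP50 the highest mean was that of *pcn-1*, with 166 ± 51.6 FPKM (SD, n = 3), followed by *rnr-2* with 121 ± 33.6, *mcm-2* with 116 ± 27.8, *mcm-7* with 82.4 ± 29.8 and *rnr-1* with 81.6 ± 18.2 FPKM. Then came *mcm-6* with 63.8 ± 19.3, *mcm-5* with 58.6 ± 15.5, *mcm-3* with 52.1 ± 17.2 and *mcm-4* with 44.7 ± 10.5 FPKM. Neighbours in this order differed by less than the larger of their SDs, except *mcm-2* and *mcm-7*, and the OP50 libraries of these overlapped too (99.7 to 148 and 61.3 to 117 FPKM). Within a library the order was steadier. *pcn-1* was the highest of the 9 genes in 9 of 9 libraries, *mcm-4* was the lowest in 6 of 6 WT libraries, and *mcm-3* was the lowest in 3 of 3 *egl-44* libraries. The place of *mcm-2* depends on the gene length. The deposited FPKM used a length of 1799 bases, while the annotated exons cover 2827 bases, from 2 transcripts of 2827 and 598 bases. At the annotated length its mean on OP50 was 73.7 FPKM, below *mcm-7* with 82.7 FPKM. *mcm-6* changed place too, with 53.8 FPKM at the annotated length, below *mcm-5* with 59.0 FPKM. The length does not touch comparisons of the same gene between libraries.

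**Figure D1:**
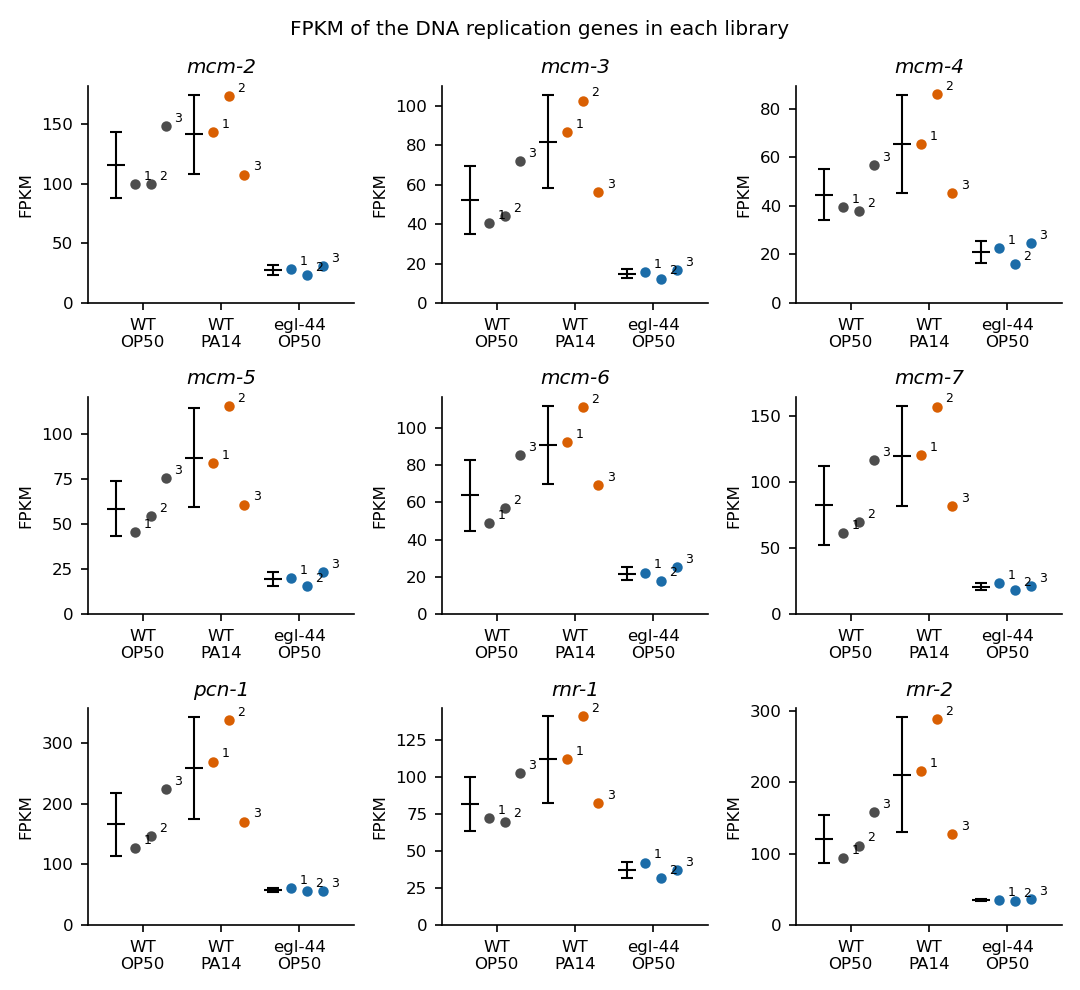
FPKM (linear axis from 0) of the 9 genes in each library, with replicate numbers beside the points and the mean ± SD (n = 3) of each group as a bar to its left. The *egl-44* libraries lay below all WT libraries for each gene, PA14 replicate 2 was the highest library for 9 of 9 genes, and the OP50 and PA14 libraries overlapped.

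The first question was whether exposure to *P. aeruginosa* PA14 changed these genes in WT worms. The means of all 9 genes were higher on PA14, by 1.22-fold for *mcm-2* to 1.74-fold for *rnr-2*, but for no gene did the PA14 libraries separate from the OP50 libraries. None of the 9 passed the limits, which were a fold change over 2 and a p from limma under 0.05 before adjustment. Over all 15760 genes tested, 6.99% passed upwards and 1.78% downwards, or 0.723% and 0.0761% after adjustment. With limma on the 6 libraries compared, 0 of the 9 genes had an unadjusted p under 0.05, and limma voom on reads recovered from the FPKM also called 0. In 1 limma fit of all 9 libraries, *pcn-1* and *rnr-2* had such a p (0.0480 and 0.0311). Their adjusted p-values there were 0.214 and 0.182, and 0 of the 9 genes passed the limits. The PA14 libraries lay above all OP50 libraries in 0 of 9 genes, against 23.7% of all genes, and below them in 0 of 9, against 6.53%.

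*rnr-2* (chromosome III, 4093308 to 4094921, minus strand, WBcel235), the small reductase subunit, had the largest log2 fold change on PA14. Its FPKM was 93.3, 111 and 158 on OP50 and 215, 288 and 128 on PA14. PA14 replicates 1 and 2 lay above the OP50 libraries and replicate 3 lay between them. The log2 fold change was 0.75 (SE 0.33, adjusted p = 0.258), with a 95% interval of −0.04 to 1.55. Without PA14 replicate 3 it was 1.08 (unadjusted p = 0.00677, adjusted p = 0.130) and passed the limits, and without PA14 replicate 2 it was 0.49. *rnr-1* (chromosome III, 9225339 to 9228798, minus strand), the large subunit, had 72.4, 69.8 and 103 FPKM on OP50 and 112, 141 and 82.4 on PA14. The libraries stood in nearly the same order as for *rnr-2*, over a smaller range. Its log2 fold change was 0.44 (SE 0.25, adjusted p = 0.308).

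*pcn-1* (chromosome IV, 4047937 to 4049448, minus strand), the sliding clamp gene, had 126, 147 and 224 FPKM on OP50 and 270, 338 and 171 on PA14. PA14 replicate 3 was again below OP50 replicate 3. The log2 fold change was 0.63 (SE 0.31, adjusted p = 0.281), with a 95% interval of −0.11 to 1.38. Of the helicase genes, *mcm-3* (chromosome V, 15056719 to 15059599, minus strand) had the largest log2 fold change. Its FPKM was 40.5, 43.9 and 71.9 on OP50 and 86.4, 103 and 56.0 on PA14, a log2 fold change of 0.65 (SE 0.31, adjusted p = 0.270). The smallest was that of *mcm-2* (chromosome II, 12001509 to 12006625, minus strand), with 99.7, 99.9 and 148 FPKM on OP50 and 143, 173 and 107 on PA14. Here OP50 replicate 3 exceeded PA14 replicates 1 and 3, and the log2 fold change was 0.28 (SE 0.24, adjusted p = 0.447). The other 4 helicase genes lay between, with log2 fold changes of 0.52 to 0.55 and adjusted p-values of 0.286 to 0.325.

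The 9 genes had a median log2 fold change of 0.54, and that of all genes tested was 0.25 on the deposited scale, where 67.5% of all genes had a value above 0. The 9 genes were therefore 0.28 to 0.75 on a scale on which most genes were shifted upwards. With median-of-ratios scaling the medians were 0.29 for the 9 genes and 0.01 for all genes, and with quantile normalization they were 0.43 and 0.03. The log2 fold changes of the 9 genes remained above 0 under both, at 0.03 to 0.50 and 0.26 to 0.79. Without PA14 replicate 2, they were 0.12 to 0.49 with a median of 0.32, beside a median of 0.18 over all genes, and the lowest unadjusted p was 0.173. Leaving out PA14 replicate 3 had the opposite effect, with 0.47 to 1.08 and a median of 0.78, beside 0.27 over all genes, and 8 of the 9 genes then had an unadjusted p under 0.05. Without OP50 replicate 3 the median was 0.75 and 6 of 9 had such a p, with 0 of 9 when any other single library was left out. Calls over all genes rose in these 2 fits too, from 1383 to 2595 without PA14 replicate 3 and to 1724 without OP50 replicate 3. The share of all genes with such a p in these fits is not given, so these counts are not a result about the 9 genes alone. The 95% intervals allow changes from slightly below 0 to more than 2-fold for 8 of the 9 genes, which is the precision that 3 libraries per group gave.

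The order of the WT libraries was nearly the same for all 9 genes. From high to low, it was PA14 replicates 2 and 1, OP50 replicate 3, PA14 replicate 3, and OP50 replicates 2 and 1 in 6 genes. In *mcm-4* and *rnr-1* OP50 replicates 1 and 2 changed places, and in *mcm-2* OP50 replicate 3 stood above PA14 replicate 1. OP50 replicate 3 was the highest OP50 library in 9 of 9 genes, against 45.3% of all genes tested, and PA14 replicate 3 the lowest PA14 library in 9 of 9, against 37.0%. The summed FPKM of the 9 genes was 628, 691 and 1040 on OP50 and 1188, 1513 and 801 on PA14. A list of 21 oocyte and eggshell genes, transcribed in the germline as oocytes form, stood in this order too, with sums of 2544, 3377 and 5862 FPKM on OP50 and 6632, 7486 and 4151 on PA14. The ratio of the sum of the 9 genes to the oocyte sum was 0.177 to 0.247 on OP50 and 0.179 to 0.202 on PA14. This order was not particular to oocyte genes. The sums of 19 mitosis genes had it too, with 1098, 1174 and 1705 FPKM on OP50 and 1762, 2174 and 1345 on PA14, as did those of 48 other replication genes. A list of 11 sperm genes did not, with 1272, 1150 and 1353 FPKM on OP50 and 902, 474 and 1266 on PA14. A list of 9 germline genes, called distal germline here, varied less, between 733 and 846 FPKM over the 6 WT libraries. It holds the Notch receptor gene *glp-1* but also *nos-3*, *glh-1*, *pgl-1* and *pgl-3*, so its sum is not a measure of the distal germline alone. A list of 8 moulting genes ran the other way within the OP50 libraries, with 373, 163 and 46.7 FPKM, but not within the PA14 libraries, with 104, 208 and 237. The part of oocyte number and stage in the spread of the 9 genes was not tested.

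**Figure D2:**
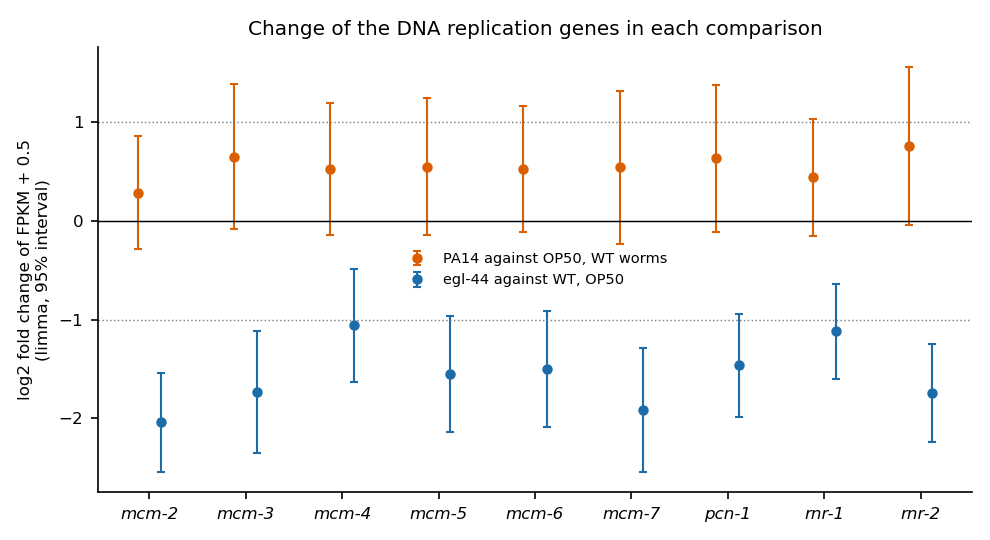
Log2 fold change of FPKM + 0.5 with its 95% interval (limma, 3 libraries against 3) for each gene in both comparisons, which share the 3 OP50 libraries. Dotted lines mark a 2-fold change. On PA14 the values were 0.28 to 0.75 and each interval includes 0, and in *egl-44* worms they were −2.04 to −1.06 and no interval includes 0.

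The second question was how the 9 genes differed between *egl-44(mt2247)* and WT worms on *E. coli* OP50. All 9 were lower in the libraries labelled *egl-44*, by 2.11-fold for *mcm-4* to 4.20-fold for *mcm-2* in the ratio of means. All 9 passed the limits downwards, and all 9 also at a Benjamini-Hochberg adjusted p under 0.05. Downward calls were common, however, with 23.4% of the 15488 genes tested on the unadjusted and 23.1% on the adjusted rule. Upward calls made up 17.9% and 16.6%. In 9 of 9 genes each *egl-44* library lay below each OP50 library, against 35.6% of all genes, while 34.1% of all genes lay above without overlap. The median log2 fold change was −1.55, beside 0.12 over all genes, of which 53.1% had a value above 0 and 46.9% below. The calls of *mcm-4* and *rnr-1*, the genes closest to the 2-fold limit, were lost under some settings. Without OP50 replicate 3 their log2 fold changes were −0.88 and −0.94, and 7 genes remained called. Without *egl-44* replicate 2, *mcm-4* was at −0.88 and 8 genes remained.

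*mcm-2* fell the most. Its FPKM was 28.5, 23.1 and 31.1 in the *egl-44* libraries, and the lowest OP50 library had 99.7. The log2 fold change was −2.04 (SE 0.21, adjusted p = 0.000594). *mcm-7* (chromosome V, 4347166 to 4349768, plus strand) had 61.3, 69.5 and 117 FPKM on OP50 and 23.3, 17.9 and 20.9 in *egl-44* worms. This was a log2 fold change of −1.92 (SE 0.26, adjusted p = 0.0016), and OP50 replicate 3 was well above the other OP50 libraries. *mcm-3* fell from 40.5 to 71.9 FPKM on OP50 to 15.7, 12.4 and 16.7 FPKM, a log2 fold change of −1.73 (SE 0.26, adjusted p = 0.00217).

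*mcm-5* (chromosome III, 4288264 to 4291266, minus strand) was at 45.6, 54.5 and 75.8 FPKM on OP50 and at 19.8, 15.4 and 23.3 in *egl-44* worms, with a log2 fold change of −1.55 (SE 0.25). *mcm-6* (chromosome III, 9794367 to 9798644, plus strand) was at 49.0, 56.9 and 85.6 FPKM and at 22.3, 18 and 25.1, with a log2 fold change of −1.50 (SE 0.25). For both, the groups were apart by more than the range of the *egl-44* libraries. *mcm-4* (chromosome I, 2318291 to 2321817, minus strand), which is also known as *lin-6* and is required for postembryonic cell division in the worm, fell the least. It had 39.5, 37.7 and 56.7 FPKM on OP50 and 22.5, 16.1 and 24.8 in *egl-44* worms, a log2 fold change of −1.06 (SE 0.24, adjusted p = 0.00999).

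*pcn-1* had 61.4, 56.5 and 56.4 FPKM in *egl-44* worms, which is a narrow range beside the 126 to 224 FPKM on OP50. The log2 fold change was −1.46 (SE 0.22, adjusted p = 0.00229). *rnr-2* was similarly even in *egl-44* worms, with 34.5, 33.7 and 36.9 FPKM, and fell by 1.74 on the log2 scale (SE 0.21, adjusted p = 0.000974). *rnr-1* was at 42.1, 31.6 and 37.2 FPKM in the *egl-44* libraries and fell by 1.12 (SE 0.20, adjusted p = 0.0044). *egl-44* replicate 2 was the lowest of the 9 libraries for 8 of the 9 genes, the exception being *pcn-1*.

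Overlap of the 9 genes with other genes was small. The library kit does not mark strand, and the exons of *mcm-3* share 73 bases (2.72% of its exon length) with a gene on the other strand, while the other 8 genes share 0 to 18 bases. A snoRNA gene lies in an intron of *rnr-1*.

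Some ratios between the 9 genes did not overlap between the groups and others did. Shares within a library do not change when all its values are scaled by a common factor. Quantile normalization is not such a scaling, and ratios under it were not computed. On the gene lengths of the deposited values, 10 ratios within a library were compared. The share of *mcm-4* in the summed FPKM of the 6 helicase genes was 11.8%, 10.4% and 10.2% on OP50, 11.1%, 11.5% and 10.8% on PA14, and 17.1%, 15.7% and 17.5% in *egl-44* worms. The *egl-44* libraries lay above the WT libraries without overlap. *mcm-6* took 14.6% to 15.7% on OP50 and 16.8% to 17.7% in *egl-44* worms, also without overlap. The share of *mcm-2* was 26.7% to 29.7% on OP50 and was lower in both other groups, with 23.2% to 25.6% on PA14 and 21.5% to 22.4% in *egl-44* worms. *mcm-7* took 18.3% to 21.0% on OP50 and 14.7% to 17.7% in *egl-44* worms, and *mcm-5* overlapped in both comparisons. *mcm-3* took 12.1% to 13.0% on OP50, 13.3% to 14.6% on PA14 and 11.8% to 12% in *egl-44* worms. Between the reductase subunits, *rnr-2* per *rnr-1* was 1.29, 1.59 and 1.54 on OP50, 1.93, 2.05 and 1.55 on PA14, and 0.818, 1.07 and 0.992 in *egl-44* worms. *rnr-1* per mean helicase gene was 1.11 to 1.29 on OP50 and 1.57 to 1.91 in *egl-44* worms. The other ratios to the mean helicase gene overlapped between these groups, with 2.26 to 2.44 and 2.39 to 3.30 for *pcn-1* and 1.67 to 1.84 and 1.56 to 1.96 for *rnr-2*. An exact permutation test of 3 libraries against 3 cannot give a p below 0.1, so these ratios are given as a description. The 6 shares are parts of 1 sum, so higher and lower shares are not separate differences. The ratios were chosen after the values were seen, and no ratios of other genes are given beside them.

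**Figure D3:**
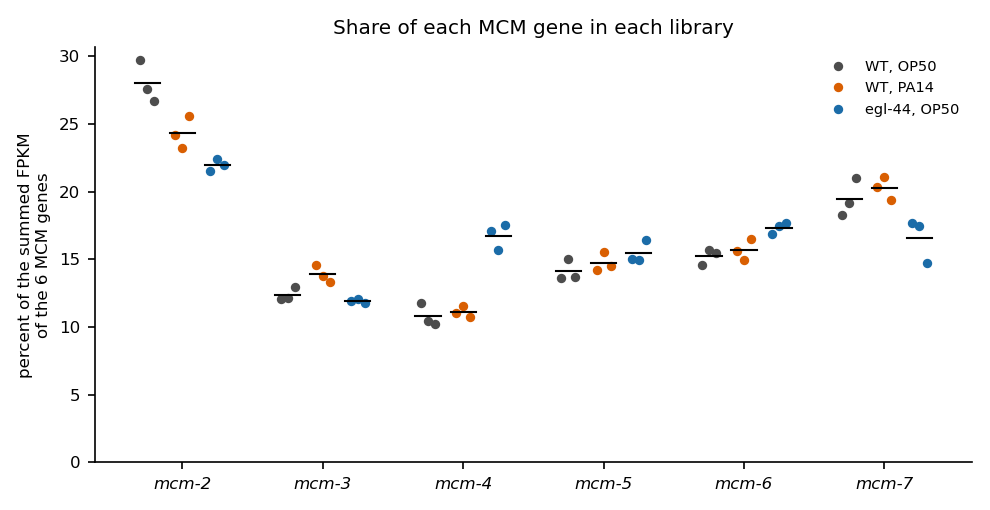
Share of each MCM gene, in percent of the summed FPKM of the 6 MCM genes, with 1 point per library and the group mean as a line. In *egl-44* worms *mcm-4* took 15.7% to 17.5% compared with 10.2% to 11.8% on OP50, and *mcm-2* took 21.5% to 22.4% compared with 26.7% to 29.7%.

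The rest of the replication machinery was read from lists of 51 gene names, of which 48 were matched in the files and 47 were tested. *psf-2*, a GINS subunit gene, is listed at 0 in all libraries. In *egl-44* worms 36 of the 47 genes passed the limits downwards and 0 upwards, against 23.4% and 17.9% of all genes. The median log2 fold change of the 47 was −1.30. In 45, each with an adjusted p under 0.05, the *egl-44* libraries lay below the OP50 libraries without overlap, against 35.6% of all genes. With quantile normalization 21 of the 47 passed downwards, with a median of −0.98, beside 3056 of all 15488 genes tested. Of the genes that license origins before S phase, 7 of 8 passed downwards. They included the origin recognition genes *orc-1* (−2.1) and *orc-5* (−2.25), and *cdc-6* (−1.08) and *cdt-1* (−1.22), whose products load the MCM ring, while *orc-2* was at −0.95. Of the genes that turn the loaded helicase on or travel with the fork, 10 of 12 passed downwards, and *clsp-1* (−0.99) and *sld-5* (−0.75) fell by less than the fold limit. The kinase gene *cdc-7*, whose product phosphorylates the MCM complex in yeast, had the largest fall in the lists (−2.76, SE 0.30), and the GINS genes *psf-1* (−1.76) and *psf-3* (−1.60) and the adaptor gene *ctf-4* (−1.77) fell as well.

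Among primase and polymerase genes, 7 of 8 passed downwards, from −1.03 for the primase gene *pri-1* to −1.55 for the polymerase delta gene *pold-2*, and *div-1*, a polymerase alpha subunit gene, was at −0.79. Of the genes of the clamp loader, the single-strand binding protein RPA and lagging strand synthesis, 8 of 10 passed downwards. *rfc-3*, which encodes a subunit of the complex that loads PCN-1 on DNA, fell by 2.01, and the ligase gene *lig-1* was at −1.76. The RPA genes were unequal, with *rpa-1* at −1.10, *rpa-2* at −0.78 (adjusted p = 0.0052) and *rpa-4* at 0.004 (adjusted p = 0.990). Of 3 other nucleotide supply genes, *dut-1*, the dUTPase gene, passed (−2.23). *dhfr-1*, dihydrofolate reductase, fell by less than the fold limit (−0.85, adjusted p = 0.0119), and *tyms-1*, thymidylate synthase, was at 0.01 (adjusted p = 0.953), with 23.6 FPKM on OP50 and 23.7 in *egl-44* worms. Of the chaperones that put histones on new DNA, 3 of 6 passed. *asfl-1*, a worm gene for the chaperone ASF1, fell by 2.7 and another, *unc-85*, was at −0.95.

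On PA14, 46 of these 47 genes had a log2 fold change above 0, with a median of 0.39 beside 0.25 over all genes, and 0 passed the limits by limma or by limma voom. With limma, 2 of the 47 had an unadjusted p under 0.05, and 0 had an adjusted p under 0.05. Without PA14 replicate 2 the median was 0.24 beside 0.18 over all genes, 44 of 47 values were above 0 and 0 had an unadjusted p under 0.05. The largest values were those of the nucleotide supply genes *tyms-1* (0.82, SE 0.35) and *dut-1* (0.79, SE 0.32) and of *cdt-1* (0.75, SE 0.37), beside 0.75 for *rnr-2*. Without PA14 replicate 3 these 3 genes passed the limits, with log2 fold changes of 1.15, 1.07 and 1.05, and without OP50 replicate 3 *dut-1* alone did, with 1.02. An unadjusted p under 0.05 was then reached by 23 and 12 of the 47 genes. The genes that passed had adjusted p-values of 0.130 to 0.137 and of 0.205. Calls over all genes rose as well, from 1383 to 2595 and 1724. This comparison and that of *egl-44* share the OP50 libraries.

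**Figure D4:**
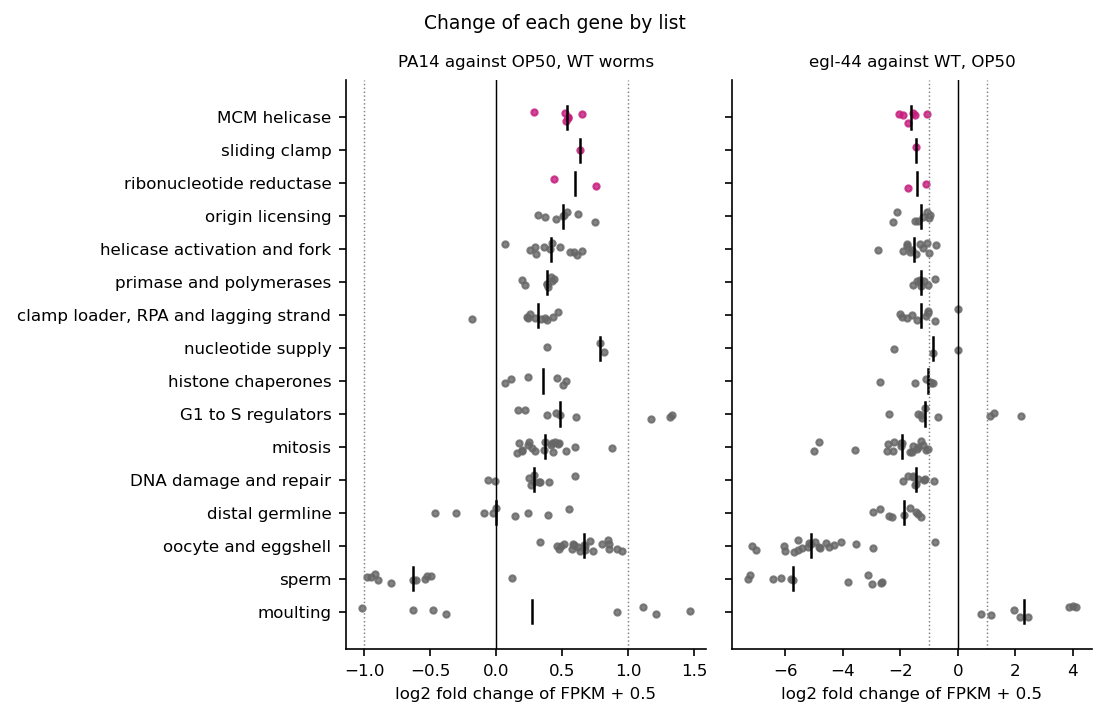
Log2 fold change of FPKM + 0.5 of each gene by list in both comparisons, with the 9 replication genes in colour, the list median as a line and dotted lines at a 2-fold change. The scales of the panels differ. In *egl-44* worms the replication lists lay mostly between −0.75 and −2.76, with *rpa-4* and *tyms-1* near 0. The medians of the oocyte and eggshell list (−5.12) and of the sperm list (−5.73) lay lower. Their highest values, −0.79 and −2.63, lay within the range of the replication lists.

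The cell cycle genes around replication were read from 3 lists of 38 genes. In *egl-44* worms all 19 mitosis genes passed the limits downwards, with a median of −1.94 on the log2 scale. Over all genes, 23.4% passed downwards and 17.9% upwards. The B-type cyclin genes *cyb-2.2* (−5.01), *cyb-2.1* (−4.81) and *cyb-1* (−3.58) fell further than any of the 9 replication genes, while *cdk-1* was at −1.22. Of 10 DNA damage and repair genes 9 passed downwards, among them the recombinase gene *rad-51* (−1.44) and the checkpoint kinase gene *chk-1* (−1.39). Of 9 regulators of entry into S phase 5 passed downwards and 3 upwards, and the E2F gene *efl-2* was at −0.68 (adjusted p = 0.0399). The cyclin E gene *cye-1* (−2.38), its kinase gene *cdk-2* (−1.24) and the E2F and DP genes *efl-1* (−1.30) and *dpl-1* (−1.40) fell, with *lin-35*, the worm Rb gene and a repressor of E2F targets (−1.14). The cyclin D gene *cyd-1* (2.2) and its kinase gene *cdk-4* (1.10) rose, and so did *cki-1* (1.27), which encodes an inhibitor of such kinases. On PA14 *cdk-4* was the only one of the 38 genes to pass the limits (1.33, SE 0.54, adjusted p = 0.241). It had 1.05, 2.9 and 3.02 FPKM on OP50 and 4.51, 12.8 and 3.91 on PA14, with PA14 replicate 2 far above the rest. Without that library its log2 fold change was 0.83 (unadjusted p = 0.110) and 0 of the 38 genes passed, with an unadjusted p under 0.05 in 0 of 38. The call was also lost without OP50 replicate 1 (0.94), OP50 replicate 2 (1.51) or PA14 replicate 1 (1.53). Without OP50 replicate 3, *cdk-4* and the cyclin B3 gene *cyb-3* passed, and without PA14 replicate 3 *cdk-4*, *cyd-1* and *cyb-3* did. Their adjusted p-values were 0.207 to 0.229 and 0.130 to 0.149.

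In *egl-44* worms germline genes were lower along with the 9 replication genes. Most genes of the somatic lists had a log2 fold change above 0, and some of them passed the limits. Over all genes, 17.9% passed upwards and 23.4% downwards. All 9 genes of the distal germline list passed the limits downwards (median −1.86). So did 20 of 21 oocyte and eggshell genes (median −5.12) and all 11 sperm genes (median −5.73), against 23.4% of all genes. Their summed FPKM was 102 to 358, 118 to 153 and 4.79 to 64.3 in the *egl-44* libraries, compared with 765 to 846, 2544 to 5862 and 1150 to 1353 on OP50. The exception was *lin-41*, at −0.79 (adjusted p = 0.289). No gene of the oocyte list was at 0 in the *egl-44* libraries, where the lowest value was 0.71 FPKM for *perm-2*, and of the sperm list *spe-38* was at 0 in replicates 1 and 2. The sum of the 8 moulting genes was 807 to 1098 FPKM in the *egl-44* libraries and 46.7 to 373 on OP50. The limits were passed upwards by 6 of these 8 genes. Of the somatic lists, 4 of 4 body muscle genes had a log2 fold change above 0 (median 0.58, 3 with an adjusted p under 0.05 and none past the fold limit). Over all genes 53.1% did. So did 5 of 5 neuron genes (median 0.70, 2 past the limits). In the epidermis list 3 of 5 did (median 0.82, lowest −8.52), with 2 past the limits upwards and 1 downwards. In the intestine list 5 of 7 did (median 0.42), with 2 past the limits upwards and 2 downwards. The exceptions there were the yolk genes *vit-2* and *vit-6*. The summed FPKM of the 9 replication genes, at 270, 225 and 272 in *egl-44* worms, fell less than the oocyte and sperm sums, and their ratio to the oocyte sum was 1.54 to 2.29 there. Their ratio to the mitosis sum was 0.748 to 0.897 in *egl-44* worms and 0.572 to 0.610 on OP50. Their ratio to the distal germline sum overlapped, with 0.795, 0.903 and 1.23 on OP50 and 1.40, 2.2 and 0.760 in *egl-44* worms. The part of germline size and of stage in the fall of the 9 genes was not tested.

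**Figure D5:**
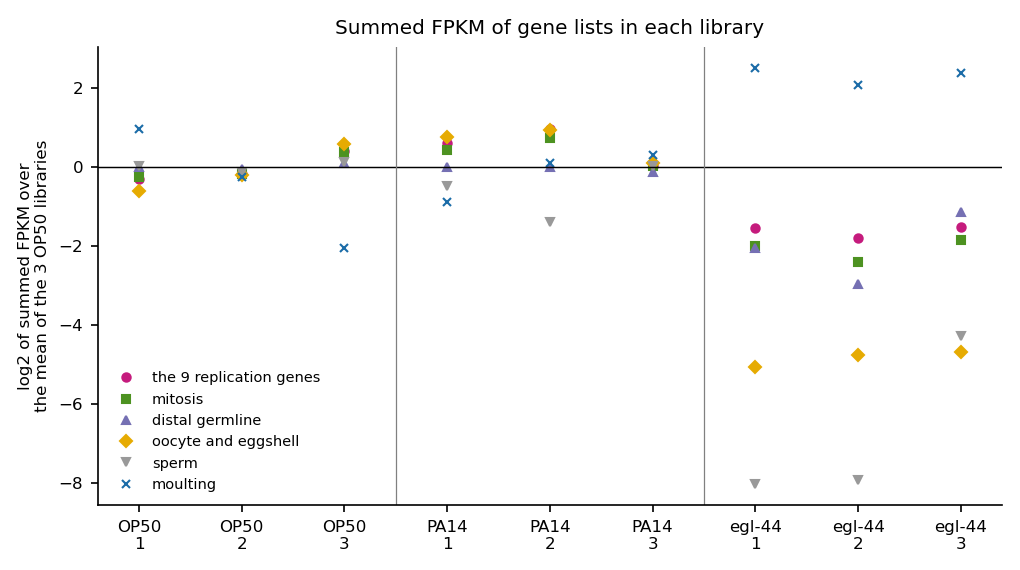
Log2 of the summed FPKM of the 9 replication genes and of 5 lists in each library, over the mean of the 3 OP50 libraries. In *egl-44* worms the 9 replication genes (270, 225 and 272 FPKM) fell less than the oocyte and sperm lists, and the moulting list was above its OP50 values.

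The 9 genes varied closely together. Over the 9 libraries, Pearson's r of log2(FPKM + 0.5) between their 36 pairs was 0.958 to 0.998, and over the 6 WT libraries it was 0.940 to 0.998. These correlations share the libraries and their scaling, and over 9 libraries they rest largely on the *egl-44* libraries, so no p is given. Among 11036 other genes averaging 5 FPKM or more, the 10 whose pattern was most like the mean of the 9 genes were *icp-1*, *gex-3*, *cyb-3*, *cks-1*, *gon-4*, *szy-5*, *unc-61*, *aap-1*, *cids-1* and *tost-1*, with r of 0.998 to 0.999. *icp-1*, the INCENP gene of the mitotic chromosomal passenger complex, had 29.8, 31.6 and 45 FPKM on OP50, 53.2, 63.9 and 37.9 on PA14, and 13.8, 10.8 and 14.4 in *egl-44* worms. The median r was 0.41 over all these genes, 0.98 over the 19 mitosis genes, 0.97 over the 21 oocyte and eggshell genes and 0.90 over the 9 genes of the distal germline list. Over the 6 WT libraries alone the medians were 0.47, 0.98, 0.97 and 0.72.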

How the data were processed

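Per the labels, libraries were made with NEBNext Ultra RNA, and the submitters' processing notes name Bowtie2 2.2.3, TopHat2 2.0.12, HTSeq 0.6.1, DESeq 1.18.0 and the build WBcel235, with no roles. The authors deposited FPKM, 1 file per library. Symbols (19587 of 20541 identifiers) and coordinates came from the Ensembl annotation of WBcel235. FPKM steps gave whole reads, within 0.01 reads, for 100% of 19711 genes above 0. Counting intervals cover counting error only.

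The 6 libraries of a comparison entered a limma fit (version 3.58.1, R 4.3.3, eBayes with trend) of log2(FPKM + 0.5). Genes averaging below 0.5 FPKM were left out, and fold changes on this scale understate low genes. Adjusted p-values (Benjamini-Hochberg) are over all genes tested. Ratios and tables used pandas 2.3.3, matplotlib 3.10.9, scipy 1.17.1 and numpy 2.4.6 in Python 3.11.15. Steps were tested on simulated data with 200 changed genes.

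The 9 genes and the lists were chosen with earlier results of these data known. All 9 genes are named, with list genes by role where called or needed to give a list in full, *egl-44*, and the 10 genes most like the 9. Ratios, annotated lengths and the leave-outs of the cell cycle lists were chosen after the values were seen, as were the marker genes named singly. The listed names *cdc-45*, *sld-3* and *dbf-4* were not matched, and *pold-1* and *pold-2* were read as *F10C2.4* and *F12F6.7*. Alternatives were other pseudocounts, filters, scalings, limma voom, 1 fit of 9 libraries, a replicate block and leaving out each library.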

Additional observations from a re-analysis of the deposited data

How the results depend on the processing

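No result for the 9 genes reversed. Some alternatives cannot move a log2 fold change and bear only on its p. These were the adjusted p, the filters, the 1 fit of 9 libraries and the replicate block. For PA14 against OP50, 143 of 144 alternative results, these included, stayed on their side of the limits, and *rnr-2* without PA14 replicate 3 newly passed. The number of the 9 genes called was 0, and 0 to 1 when 1 library was left out. For *egl-44* against WT, 138 of 144 stayed and 6 dropped below the 2-fold limit. These were *mcm-4* with quantile normalization (−0.76), with limma voom (−1.0), without OP50 replicate 3 and without *egl-44* replicate 2, and *rnr-1* with quantile normalization (−0.96) and without OP50 replicate 3. The number called was 9, with 7 for quantile normalization, 8 for limma voom and 7 to 9 when 1 library was left out. Of the 47 other replication genes, 0 passed on PA14 (0 to 3 when 1 library was left out). In *egl-44* worms 36 passed, with 21 for quantile normalization, 32 for limma voom, 40 for median-of-ratios scaling and 28 to 39 when 1 library was left out.

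Over all genes, 1383 were called on PA14, 126 at an adjusted p, 786 at a mean of at least 5 FPKM (fewer genes tested) and 914 to 2595 when 1 library was left out, with 2595 without PA14 replicate 3 and 918 without PA14 replicate 2. The upward share was 79.7%, and 52.0% with median-of-ratios scaling, 44.8% with quantile normalization and 52.6% with limma voom. In *egl-44* worms 6405 were called, with 4146 at a mean of at least 5 FPKM and 5788 to 6845 when 1 library was left out. The upward share was 43.4%, and 57.7% with quantile normalization. The cause of these shifts was not tested.

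With a replicate block, 0 and 9 of the 9 genes and 1223 and 6465 of all genes were called, and it changed no call of the 9 genes. Deviations of same-numbered libraries correlated at −0.19, −0.24 and −0.55 for PA14 and OP50 and at 0.08, 0.06 and 0.09 for *egl-44* and OP50. The block raised the SE of each of the 9 genes on PA14 (0.238 to 0.293 for *mcm-2*). It lowered each SE for *egl-44* (0.210 to 0.145 for *mcm-2*). Whether the numbers pair the libraries cannot be told from 3 libraries per group. The 9 genes had 453 reads or more in each library, so counting error was below the spread between libraries.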
